A study of Mus musculus with 2 samples.

Results

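Kinesin-1 is the motor that carries mitochondria and many other cargoes along microtubules toward the plus end. The genes described here are the 9 that encode its heavy chains (Kif5a, Kif5b and Kif5c), its light chains (Klc1 and Klc2), the TRAK adaptors (Trak1 and Trak2) and the Miro GTPases of the mitochondrial outer membrane (Rhot1 and Rhot2). The set was chosen by the log2 differences of Kif5a, Kif5b, Kif5c and Trak2, which were large between the 2 arrays of the study, so the differences of these 4 genes are a description of what selected them. Of the 9 genes, 7 were measured here by a probe set with a gene symbol, out of 19494 genes in all. Klc2 and Rhot2 had no named probe set and were not analysed here.

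In the best-known form of mitochondrial transport, a Miro protein in the outer membrane binds a TRAK adaptor, and TRAK binds a kinesin heavy chain, without need of a light chain. Calcium binding by Miro stops the movement. In the brain, Kif5a and Kif5c are known mainly from neurons, where they serve the axon, whereas Kif5b is made in most cell types. TRAK1 and TRAK2 differ in use, since in rodent neurons TRAK1 is known to steer mitochondria into axons and TRAK2 more to dendrites, with dynein as a further partner.

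The samples were from male C.B-17/Icr-+/+Jcl mice of 7 weeks that received a permanent occlusion of the middle cerebral artery (MCAO). Both groups were housed with a running wheel for 1 week before MCAO and were given BrdU, a label of dividing cells, at 50 mg/kg/day on POD0 to POD3. After MCAO, the MCAO + exercise group had a running wheel for 15 days for voluntary running, and the MCAO + non-exercise group had none. On POD15, cells bearing the astrocyte surface antigen ACSA-2 were sorted with magnetic beads from the ipsilateral cortices, with 2 or 3 mice in each sorting experiment. For each group, RNA of 4 extracts was pooled and measured on 1 Clariom S mouse array. The limit of the design is that each group is 1 array of 1 pool. The spread between mice or extracts is therefore unknown, and differences are given without a test or an error. The array labelled MCAO + exercise is called the exercise array below, and the array labelled MCAO + non-exercise the non-exercise array. There was no array without MCAO, so all values belong to the postischemic cortex.

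All values below are log2 intensities unless called intensities, and each difference is the exercise array minus the non-exercise array. Pairs of values give the non-exercise array first. A gene was kept when it exceeded the 25th percentile of the named probe sets, 5.08 on the non-exercise array and 4.89 on the exercise array, on at least 1 of them. This left 15196 genes. A difference above 1 or under -1 was counted as higher or lower. Over the kept genes, 573 (3.77%) were higher and 359 (2.36%) were lower, 6.13% together, and the median difference was 0.04. Of those past the threshold 61.5% were higher, a share that was 43.0% after each array was centred on its median over the kept genes and 80.3% with an offset of 32 added to the intensities. The 7 measured genes were above background on both arrays, as were 14043 of all 19494 genes. Of the 7, 4 were higher, 0 were lower and 3 lay between -1 and 1. That count restates the choice of the genes.

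All 3 heavy chains were brighter on the exercise array, and Kif5a and Kif5c had the widest gaps of the set. This direction follows the deposited labels and is opposite to that of the study, which lists Kif5a and Kif5b as lower with exercise. The same holds for Camk2a, Kif1a, Dync1li2, Map4 and Mobp, named below as higher on the exercise array. For all of these genes the study gives the same size of difference with the opposite sign. Neither Kif5c nor Trak2 is on the study's lists of changed genes, although both pass its threshold here. Those lists are much shorter than the counts given above and were made after genes under the negative control level were removed. What that filter would do to Kif5c and Trak2 was not tested. The sizes are the same under either reading of the labels, whereas the signs of all differences given here would turn together if the arrays had been exchanged. Kif5a encodes a heavy chain of neurons that is mutated in a human hereditary spastic paraplegia. Its intensity was 9931 on the non-exercise array and 168885 on the exercise array, or 13.28 and 17.37 on the log2 scale, a difference of 4.09 (17.0-fold). Of the kept genes only Gh and Nrsn1, named after their values were seen, had a higher difference. Nrsn1 had 8.07 and 12.87, while Gh, the growth hormone gene, was not above background on the non-exercise array and was at least 1862-fold brighter on the other. Kif5c, the other heavy chain enriched in neurons, had intensities of 866 and 12685, or 9.76 and 13.63 on the log2 scale. Its difference of 3.87 (14.7-fold) came next after that of Kif5a. Kif5b, the heavy chain found in most cells, had intensities of 6204 and 29008, or 12.60 and 14.82, and a difference of 2.23 (4.68-fold). In these pools, more cells that hold a transcript and more of that transcript per cell cannot be told apart.

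**Figure D1:**
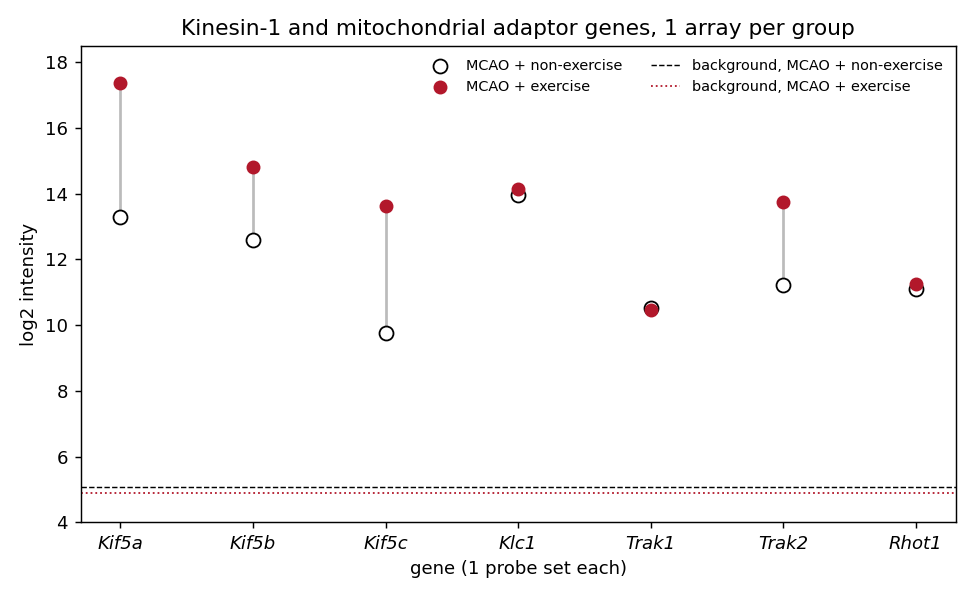
Log2 intensity (vertical axis) of the 7 measured genes (horizontal axis) on the non-exercise array (open circles) and the exercise array (filled circles), 1 array per group, with the background level of each array as a dashed and a dotted line. The filled circle lies far above the open one for Kif5a, Kif5b, Kif5c and Trak2, and nearly on it for Klc1, Trak1 and Rhot1.

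The heavy chains were not equally different. Kif5a exceeded Kif5b by 1.86 in its difference and Kif5c exceeded Kif5b by 1.65, which correspond to 3.64-fold and 3.13-fold, while Kif5a and Kif5c were 0.21 apart. These gaps between paralogues do not move when an array is rescaled by a common factor. With loess correction, quantile normalization and the other alternatives, the gap of Kif5a over Kif5b ranged from 1.86 to 1.90 and that of Kif5c over Kif5b from 1.60 to 1.65. The heavy chains are closely related genes, and whether their probe sets separate them was not tested.

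The light chains bind the heavy chains and recruit vesicle cargo. Klc1 was the light chain measured here, and it was nearly level, with intensities of 16110 and 18076, or 13.98 and 14.14 on the log2 scale. Its difference was 0.17, and 27.1% of the kept genes had a smaller absolute difference. Klc3 and Klc4, the light chains outside the set, had differences of 0.13 and 0.19.

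The TRAK paralogues parted, which restates the choice of the set, since Trak2 was named for its difference and Trak1 was not. Trak2 had intensities of 2380 and 13834, or 11.22 and 13.76 on the log2 scale, a difference of 2.54 (5.81-fold). There were 22 kept genes with a higher difference. Trak1 had intensities of 1466 and 1417, or 10.52 and 10.47, a difference of -0.05, and 8.41% of the kept genes had a smaller absolute difference. Trak2 exceeded Trak1 by 2.59 in its difference (6.01-fold), and by 2.57 to 2.62 under the alternatives that could move this gap. Rhot1, which encodes Miro1, the mitochondrial anchor of both adaptors, had intensities of 2194 and 2420, or 11.10 and 11.24, and a difference of 0.14. The genes of the set that were not named for their difference, Klc1, Trak1 and Rhot1, therefore lay between -0.05 and 0.17, with the sign of Klc1 turned after quantile normalization (-0.06) and that of Rhot1 after quantile normalization (-0.10) and loess correction (-0.05).

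**Figure D2:**
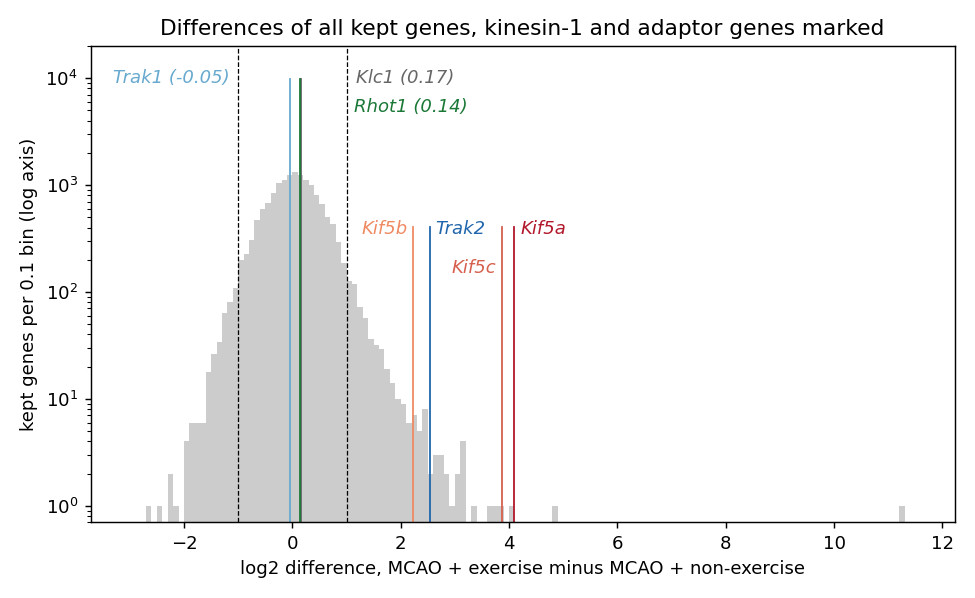
Number of kept genes (vertical log axis) per 0.1 bin of the log2 difference, MCAO + exercise minus MCAO + non-exercise (horizontal axis), with the 7 measured genes as coloured lines and the thresholds of 1 and -1 dashed. Trak1, Rhot1 and Klc1 fall in the centre of the distribution, whereas Kif5b, Trak2, Kif5c and Kif5a lie in its right tail, which 43 genes reach from the difference of Kif5b upward.

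From the difference of Kif5b upward there were 43 kept genes, 0.283% of all, of which 40 were above background on both arrays. This count, and the ranks given above for Kif5a, Kif5c and Trak2, describe how the genes were chosen. With likeness measured as the closeness of the log2 difference over the 2 arrays, the gene nearest to Kif5a was Kif5c and the gene nearest to Kif5c was Kif5a. Rims1, a scaffold of the presynaptic active zone, was the other near gene of both, with 9.12 and 12.74 and a difference of 3.62. Nearest to Trak2 were Dusp19, a phosphatase gene, and Prr18, with differences of 2.51 and 2.50. Nearest to Kif5b was Enpp6, a choline phosphodiesterase gene used as a marker of newly formed oligodendrocytes, with a difference of 2.23. Rnd2 came next, with 9.03 and 11.23 and a difference of 2.20. With 2 arrays, this likeness is a single number for each gene. It rests on the difference by which Kif5a, Kif5b, Kif5c and Trak2 were chosen, so it is no separate evidence about them.

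RefSeq promoter windows on GRCm38.p6 were at hand for 6 of the 9 genes, with 4 start sites for Trak1 and 9 windows in all. Kif5a, Kif5b and Klc2 had no window, so Kif5a and Kif5b, which also differed between the arrays, were not searched. They are shown because Kif5c and Trak2 differed between the arrays and Klc1 and Trak1 did not pass the threshold, so both kinds can be read side by side. The 250 bases before the start were searched on both strands for TGACGTCA (the cyclic AMP response element), GGGCGG (the GC box), CACGTG (the E-box) and TATAAA (the TATA box), letters chosen after the windows had been read. In capitals, where present, is TGACGTCA. Kif5c and Trak2 are given with all 250 bases, Klc1 and 1 of the 4 starts of Trak1 with the bases around the match.
Kif5c (chr2:49619036-49619285, + strand): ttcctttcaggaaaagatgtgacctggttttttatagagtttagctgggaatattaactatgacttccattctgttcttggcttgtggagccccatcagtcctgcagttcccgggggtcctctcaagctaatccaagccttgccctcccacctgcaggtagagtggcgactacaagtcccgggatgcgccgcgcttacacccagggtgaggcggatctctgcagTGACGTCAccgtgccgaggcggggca
Trak2 (chr1:58973483-58973732, minus strand): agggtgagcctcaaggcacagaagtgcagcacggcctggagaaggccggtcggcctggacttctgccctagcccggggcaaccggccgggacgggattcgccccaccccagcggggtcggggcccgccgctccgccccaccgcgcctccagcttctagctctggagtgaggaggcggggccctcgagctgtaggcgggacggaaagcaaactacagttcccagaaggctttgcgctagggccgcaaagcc
Klc1 (chr12:111758809-111758867, + strand): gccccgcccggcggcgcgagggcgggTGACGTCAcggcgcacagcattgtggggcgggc
Trak1 (chr9:121403363-121403422, + strand): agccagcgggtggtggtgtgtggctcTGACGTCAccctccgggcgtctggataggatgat
TGACGTCA was found in 3 of the 9 windows, those of Kif5c, Klc1 and the Trak1 start shown, with its first base 26, 33 and 57 bases before the start. It was in 1.55% of all 32851 windows of that length. The window of Kif5c, with a difference of 3.87, held the match, and that of Trak2, with 2.54, held none. The window of Klc1 (0.17) and 1 of the 4 of Trak1 (-0.05) held it. Whether the match bears on the differences between the arrays was not tested. GGGCGG stood in the windows of Klc1, Rhot1, Rhot2 and Trak2 and in 2 of the 4 of Trak1, and in 32.7% of all windows, but not in that of Kif5c. TATAAA was found only for Kif5c, against 12.4% of all windows, and on the reverse strand. The 9 windows held 0 matches to CACGTG, which was in 6.02% of all windows. Their GC content ran from 53.2% to 75.6%, against a median of 52.4% over all windows. A match describes letters and does not show that a factor binds there.

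The other lists of kinesin-1 transport were chosen with earlier results of these data known. They had medians between 0.00 and 0.76, beside 0.04 over all kept genes. Among 19 kept cargo adaptors of kinesin-1, 4 were higher and 0 lower by more than 1, against 3.77% and 2.36% of all kept genes, and the median was 0.00. Those higher were Mapk8ip2, which encodes the JNK scaffold JIP2, with 7.12 and 9.09 (a difference of 1.97), Dtnb, which encodes beta-dystrobrevin, with 1.19, and Fez1 and Fez2, adaptors linking cargo to the heavy chain, with 1.06 and 1.05. The last 2 lie close to the threshold, and the count of higher genes was 1 to 4 over the alternatives. The count of lower genes was 1 with median centring, quantile normalization or loess correction. Of 15 kept genes for proteins that recruit kinesin-1 to microtubules or shape the track, 7 were higher by more than 1 and 0 lower, with a median of 0.76. Among the 7, Map4, Stmn1 and Tppp are on the study's own list of changed genes from the same arrays, so the count is not independent of it. The microtubule-associated protein genes Map1a, Map4 and Map1b had differences of 1.48, 1.47 and 1.36, and Stmn2, a neuronal tubulin-binding protein, 1.35. Map7d3, whose relatives recruit kinesin-1, had -0.54 and Dclk1 had -0.32. Of these 15 genes, Map2 and Stmn2 are also on the list of neuron markers.

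Counts past the threshold among the genes acting with Miro and TRAK at the mitochondrion are to be read against 6.13% of all kept genes, and in lists this short a count of 0 is near that share. Of 19 kept partners of Miro and TRAK 0 were past 1 in either direction, with a median of 0.19. The highest was Armcx3, an outer membrane protein that binds Miro, with 10.45 and 11.37 (0.92), and the lowest was Disc1, a scaffold that binds TRAK1, with 6.63 and 5.85 (-0.78). Of 12 kept genes of docking, fusion and fission 0 were past 1, with a median of 0.17. Among them Kif1b, another kinesin that carries mitochondria, was the highest with 0.97, and Mief2, a receptor for the fission GTPase, the lowest with -0.33. Of 11 genes for the outer membrane channel and import 0 were past 1, with a median of 0.21, from -0.28 for Samm50 to 0.63 for Tomm70a. Among 11 kept kinases that act on kinesin-1 or on mitochondrial transport, 1 was past the threshold. It was Mapk10, which encodes the JNK3 kinase of neurons, with 7.88 and 10.17 and a difference of 2.29.

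The other microtubule motors were not tested against the heavy chains, which the choice of the set made large. Of 23 kept kinesin genes outside Kif5, 3 were higher by more than 1 and 1 was lower, against 3.77% and 2.36% of all kept genes, with a median of 0.18. With an offset of 32 the counts were 1 and 0, and 2 were lower with the 10th percentile as background, without a filter or with median centring. With quantile normalization or loess correction 4 were higher. Kif1a, a motor of synaptic vesicle precursors, had 12.13 and 14.46 and a difference of 2.33. Kifc2, a minus-end-directed kinesin, had a difference of 1.20, and the mitotic kinesins Kif4 and Kif23 had 1.13 and -1.11. For dynein and dynactin, the motor that TRAK2 also binds, 1 of 23 kept genes was higher, a share near the 3.77% of all kept genes, with a median of 0.37. It was the light intermediate chain gene Dync1li2, with 12.41 and 14.22 (1.81).

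**Figure D3:**
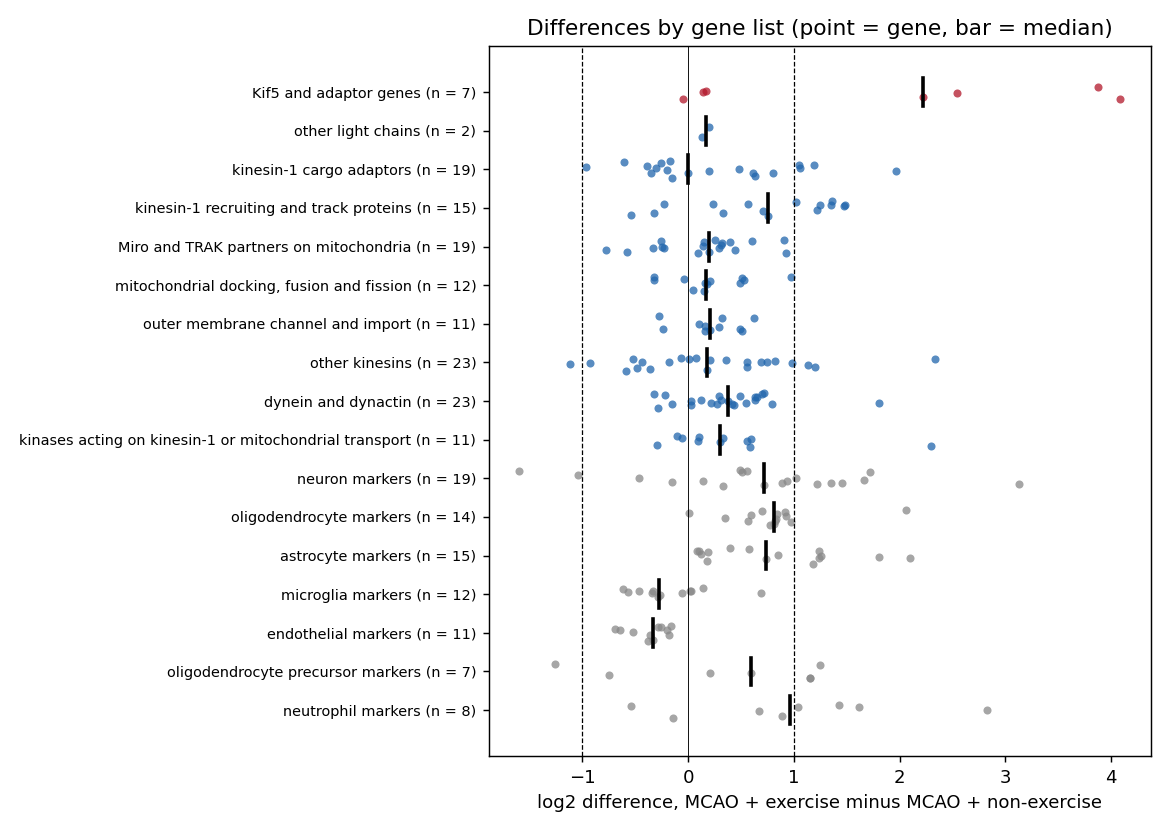
Log2 difference, MCAO + exercise minus MCAO + non-exercise (horizontal axis), of every kept gene (points) in the Kif5 set, the transport lists and the cell type marker lists (rows), with list medians as bars and the thresholds of 1 and -1 dashed. The Kif5 set is split between 3 genes near 0 and 4 genes beyond 2, while the medians of the transport lists run from 0.00 to 0.76.

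Markers of neurons, oligodendrocytes and astrocytes had positive medians on the same arrays, and the shares to read their counts against are the 3.77% higher and 2.36% lower of all kept genes. Of 20 neuron markers, 18 were above background on both arrays and 19 were kept, 7 higher by more than 1 and 2 lower, with a median of 0.72. Their summed intensity was 16919 on the non-exercise array and 53107 on the exercise array (3.14-fold). Most of that gap was Camk2a, a kinase of excitatory neurons, with 12.06 and 15.19. Without it, a choice made after its value was seen, the sums were 12656 and 15853 (1.25-fold). Uchl1, a ubiquitin hydrolase of neurons, had a difference of 1.72, the synaptic gene Snap25 1.46 and the neuronal nuclear gene Rbfox3 0.93. The 2 that were lower, named after their values were seen, were the synaptic vesicle gene Syt1 with 11.85 and 10.25 (-1.60) and Gad1, which encodes a GABA-synthesizing enzyme, with -1.04. The 14 named oligodendrocyte markers were all above background on both arrays with positive differences, of which 1 was above 1, a median of 0.82 and sums of 1174350 and 1810370. Mobp had the largest, 2.06, followed by Mog with 0.98, and Mbp had 0.60. The 15 astrocyte markers were above background on both arrays too, 6 of them higher by more than 1, with a median of 0.74 and sums of 151440 and 232677. Gpr37l1 had a difference of 2.10, S100b 1.80, Aqp4 1.24 and Gfap 0.74. Their part in the differences of Kif5a, Kif5b, Kif5c and Trak2 was not tested.

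The other marker lists went partly the other way. Microglia markers, all 12 above background on both arrays, had a median of -0.28 and sums of 1309280 and 1109500, with Tyrobp at -0.62, Tmem119 at 0.69, Aif1 at -0.34 and Itgam at 0.02. All 11 endothelial markers were above background on both arrays and had negative differences, with a median of -0.34, sums of 151995 and 121622, and Emcn at -0.69, Tek at -0.65, Cldn5 at -0.52 and Pecam1 at -0.38. Of 7 named markers of oligodendrocyte precursors 3 were higher by more than 1 and 1 lower, with Gpr17 at 1.25 and Cspg4 at -1.26, a median of 0.60 and sums of 5081 and 8561. The 3 became 1 with quantile normalization or loess correction. Of 9 named neutrophil markers 8 were kept, 6 were above background on both arrays and 4 were higher by more than 1, with a median of 0.97. Their summed intensities were 27732 and 27624, with Ngp at 2.83, Retnlg at 1.62, S100a8 at 1.04 and S100a9 at 0.89. Most of both sums was Csf3r, a receptor gene named after its values were seen, with intensities of 26080 and 23558 (-0.15), and Mpo, a granule enzyme gene named likewise, had -0.54. The count of 4 was 2 with an offset of 32. Every marker list held genes above background on both arrays, but so were 14043 of all 19494 genes, since background is a percentile of the probe sets. Passing it therefore does not show that a cell type was present. No probe set was at 0, the lowest intensities being 5.53 and 6.30.

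**Figure D4:**
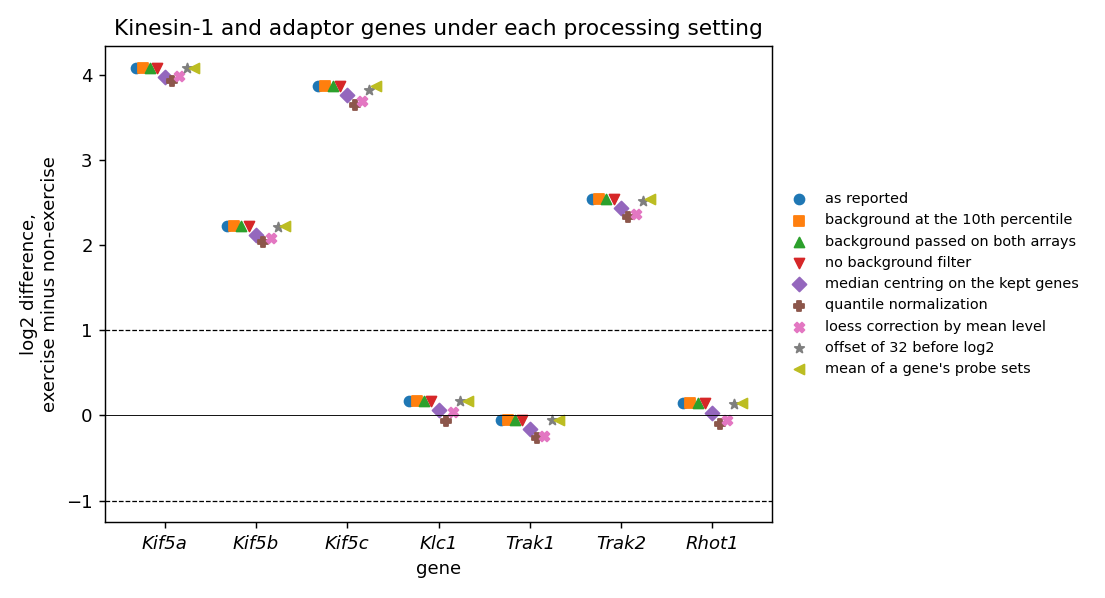
Log2 difference (vertical axis) of the 7 measured genes (horizontal axis) as reported and under each of the 8 alternative settings (symbols), with the thresholds of 1 and -1 dashed. Kif5a stays between 3.93 and 4.09, Kif5c between 3.65 and 3.87, Trak2 between 2.33 and 2.54 and Kif5b between 2.04 and 2.23, and Klc1, Trak1 and Rhot1 stay within the thresholds. The background settings and the averaging of probe sets cannot move these values.

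The values of the 7 genes depended little on the processing tried. Relative to the median of the kept genes on each array, the differences were 3.98 for Kif5a, 3.77 for Kif5c, 2.43 for Trak2 and 2.12 for Kif5b. Kif5a had 3.93, Kif5c 3.65, Trak2 2.33 and Kif5b 2.04 at their lowest, each after quantile normalization. The same 4 genes were past the threshold under all 8 alternatives, but the background settings and the averaging of probe sets could not move their values. Only median centring, quantile normalization, loess correction and the offset could. Of 22142 probe sets, 52 had identical values on both arrays and 300 shared both values with another probe set, and 0 of the 7 genes were among them. Each of the 7 had 1 named probe set, so no other probe set could be set beside it.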

How the data were processed

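The deposited intensities come from 1 Clariom S array per group, each of a pool of 4 extracts (about 70 ng of each, about 200 ng measured). The arrays were run by a contracted service. The authors' methods name GCCN-SST-RMA as the normalization of the intensities, which can change the size of a difference. RMA and Affymetrix Expression Console are named, with no version, in the submitters' processing notes. The build behind the probe sets is not given in the sources used here. The values are linear, so log2 was taken. No scanner files were used here.

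Of 22142 probe sets, the platform annotation gave 1 gene symbol to 19527, several to 0 and none to 2615. They stood for 19494 genes, and for 33 genes with several probe sets the brightest was used. List names were matched by symbol or through RefSeq names. The members and lists were chosen with earlier results of these data known. The genes named are the members, those past the threshold or at the ends of each list (4 highest and 2 lowest where more than 6 passed), the first 2 and the 2 largest differences of each marker list, the nearest genes by difference, and Gfap. A gene not above background on 1 array is given as at least N-fold over the background of that array. Filtering by negative control probes, as the study did, was not repeated. No test was possible with 1 array per group, and precision is limited by the number of arrays.

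Alternatives were a background at the 10th percentile, on both arrays or none, median centring, quantile normalization, loess correction by mean level (span 0.3), an offset of 32 and averaging of probe sets of the same gene. The script was tested on simulated data. Python 3.11.15, NumPy 2.4.6, pandas 2.3.3, statsmodels 0.14.6 and matplotlib 3.10.9 were used.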

Additional observations from a re-analysis of the deposited data

How the results depend on the processing

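Under all 8 alternatives Kif5a, Kif5b, Kif5c and Trak2 remained higher by more than 1, Klc1, Trak1 and Rhot1 remained between -1 and 1, and the median of the 7 genes ran from 2.04 to 2.23. For these genes the background settings and the averaging of probe sets could not change a value, so those settings are no check of it. The gap between Kif5a and Kif5c ran from 0.21 to 0.30. The number of kept genes that were lower, 359 as reported, was 230 with a background passed on both arrays, 575 with median centring and 99 with an offset of 32, with 516, 433 and 403 higher. Centring moved the median of all kept genes from 0.04 to -0.07. Of 256 list counts under the alternatives 15 moved by more than 1.5 times, and of 128 list medians 2 changed sign, both of the cargo adaptors (-0.10 with median centring and -0.01 with quantile normalization). The cause was not tested. Without Camk2a, an alternative chosen after seeing the data, the median of the neuron markers was 0.64. No paired analysis was possible because each group has 1 array. Signal did not limit the 7 genes, all of which were above background on both arrays.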
